A study of Mus musculus with 6 samples.

Results

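The catalytic core of Polycomb repressive complex 1 (PRC1) and its Pcgf subunits were followed in mouse embryonic stem (mES) cells. The 10 genes were chosen by name, as the RING-type ubiquitin ligases *Rnf2* (encoding Ring1B) and *Ring1*, the Pcgf subunits *Bmi1*, *Pcgf1*, *Pcgf2*, *Pcgf3*, *Pcgf5* and *Pcgf6*, and the adaptors *Rybp* and *Yaf2*. All 10 were among the 16668 genes listed, and the mean of each was at least 0.5 RPKM (reads scaled to exon length and to mapped reads, so that genes and libraries can be compared), the minimum set for testing.

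PRC1 attaches a single ubiquitin to histone H2A at its target genes and takes part in keeping developmental genes silent in mES cells. Its core is a RING ligase, Ring1B or Ring1, paired with a Pcgf protein that sets the kind of complex formed. Bmi1 and Pcgf2 (also called Mel18) occur in canonical complexes, which carry a Cbx protein that binds methylated histone H3. Pcgf1, Pcgf3, Pcgf5 and Pcgf6 occur in variant complexes, which carry Rybp or Yaf2 in place of Cbx.

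The cells were E14, a feeder-free line of strain 129/Ola at passage 3-5, and were kept in N2B27 medium with LIF at 1000 U/ml and the inhibitors PD0325901 (1 µM) and CHIR99021 (3 µM). All groups shared the line and the medium, and according to the study the cells were transfected with siRNA, the controls with a control siRNA. Bulk RNA of 2 libraries per group was sequenced for control (given as wild type), Ring1B-KD (Ring1B knockdown) and Dzip3-KD (knockdown of Dzip3, which also ubiquitinates H2A). The efficiency of knockdown that the study evaluated by RT-qPCR was that of cells in serum and LIF. The study calls the duplicates biological, but neither it nor the labels say whether they came from separate cultures, so p-values measure only the spread between these libraries, which may be technical. In bulk RNA, fewer cells expressing a gene and less RNA per cell cannot be told apart.

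For 4 of the 6 libraries the sample label and the condition word in the file name were different. The libraries are called files 1 to 6 here, after the number in the file name. File 1 was labelled control 1 and named control. File 2 was labelled control 2 and named Ring1BKD, and file 3 was labelled Ring1B-KD 1 and named Dzip3KD. File 4 was labelled Ring1B-KD 2 and named control, file 5 was labelled Dzip3-KD 1 and named Ring1BKD, and file 6 was labelled Dzip3-KD 2 and named Dzip3KD. Groups by label are written Ring1B-KD and Dzip3-KD, and those by file name Ring1BKD and Dzip3KD. Comparisons are given in both arrangements, and neither is asserted to be the treatment that a library received.

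Depth was 3015349 to 3583612 mapped reads per library, as recovered from the RPKM steps, and intervals on reads below cover counting error only. The libraries fell into sets of 3: Pearson correlations across genes were 0.960 to 0.974 within files 1 to 3 and within files 4 to 6, and 0.940 to 0.957 between these sets. By file name each set held 1 library of each group. By label, both controls lay in the first set, both Dzip3-KD libraries in the second and Ring1B-KD 1 and 2 in 1 set each. Dzip3-KD therefore has no control in its own set, and by label the sets are linked only through the Ring1B-KD libraries. All 8 markers of mES cells were expressed in every library, with a summed level of 1122 to 1468 RPKM. The summed markers were at 1.18 to 3.10 RPKM for fibroblasts (3 of 5 genes listed), 0.999 to 2.79 for primitive endoderm (5 of 5), 1.98 to 3.75 for trophectoderm (4 of 5) and 0.430 to 0.989 for mesoderm (4 of 4). Neural markers summed to 19.3 to 38.4 RPKM (5 of 5 listed), of which *Tubb3* alone averaged 19.8 RPKM and *Pax6* 0.222 RPKM. Single genes carried much of the other sums, with means of 1.91 RPKM for *Thy1* (fibroblasts), 0.830 for *Dab2* (primitive endoderm) and 1.55 for *Eomes* (trophectoderm), while *Col1a1* (0.141), *Gata6* (0.205) and *Cdx2* (0.217) were lower.

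Several members are paralogs, so their coding sequences were compared before their levels. Only uniquely mapped reads had been counted, so reads lying wholly within an identical stretch would be missing from both genes. The longest identical runs of the pairs compared were 11 to 23 bases, so only reads that short could lie wholly within one. Sequences outside the coding parts were not compared. For the coding sequences of *Rnf2* (1011 bases) and *Ring1* (1221 bases), 68.1% of the 994 aligned bases were identical, and the longest identical run was 14 bases. It lies in exon 6 of 7 of both genes. With the flanking bases shown, it spans chr1:153318784-153318827 for *Rnf2* and chr17:34158644-34158687 for *Ring1*, on the minus strand (mm9). The coding strand is shown 5′ to 3′ with the run in capitals:
Rnf2: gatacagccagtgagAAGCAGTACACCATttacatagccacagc
Ring1: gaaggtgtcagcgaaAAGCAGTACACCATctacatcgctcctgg

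*Rybp* and *Yaf2* shared the longest run of the pairs compared, 23 bases, with 73.1% of 539 aligned bases identical. It lies in exon 5 of 5 of *Rybp* and exon 4 of 4 of *Yaf2*. With the flanking bases shown, it spans chr6:100182315-100182367 and chr15:93115949-93116001, both on the minus strand:
Rybp: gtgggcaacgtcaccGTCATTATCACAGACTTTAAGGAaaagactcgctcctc
Yaf2: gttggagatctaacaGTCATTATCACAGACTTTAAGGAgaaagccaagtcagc

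*Bmi1* and *Pcgf2* shared a run of 13 bases (69.0% of 960 aligned bases identical), which with its flanking bases spans the junction of exons 2 and 3. *Pcgf3* and *Pcgf5* shared a run of 11 bases (61.4% of 671). The first of these pairs encodes the subunits of canonical complexes and is shown because both genes are taken up in the results:
Bmi1: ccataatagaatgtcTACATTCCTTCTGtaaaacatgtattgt
Pcgf2: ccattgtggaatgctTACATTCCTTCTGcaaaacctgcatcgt

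The levels of the members in mES cells were ranked by RPKM, which is per length and can be compared between genes. The exon length behind the values equalled that of an annotated transcript for *Rnf2*, *Ring1*, *Bmi1* and *Pcgf6*. For the other members it did not, and their place in the order depends on the exon length used. *Rybp* and *Rnf2* stood together at the top, with means of 25.7 ± 3.11 and 25.7 ± 4.65 RPKM (SD, n = 6 libraries), both above 94.4% of the listed genes. *Pcgf2* followed with 10.9 ± 3.25 RPKM and *Pcgf6* with 10.6 ± 2.37 RPKM. *Pcgf3* was at 8.62 ± 0.876 RPKM and *Bmi1* at 5.93 ± 0.924 RPKM (SD, n = 6). The lower members were *Yaf2* at 2.46 ± 0.606, *Ring1* at 1.94 ± 0.391, *Pcgf5* at 1.48 ± 0.654 and *Pcgf1* at 0.528 ± 0.686 RPKM (SD, n = 6).

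**Figure D1:**
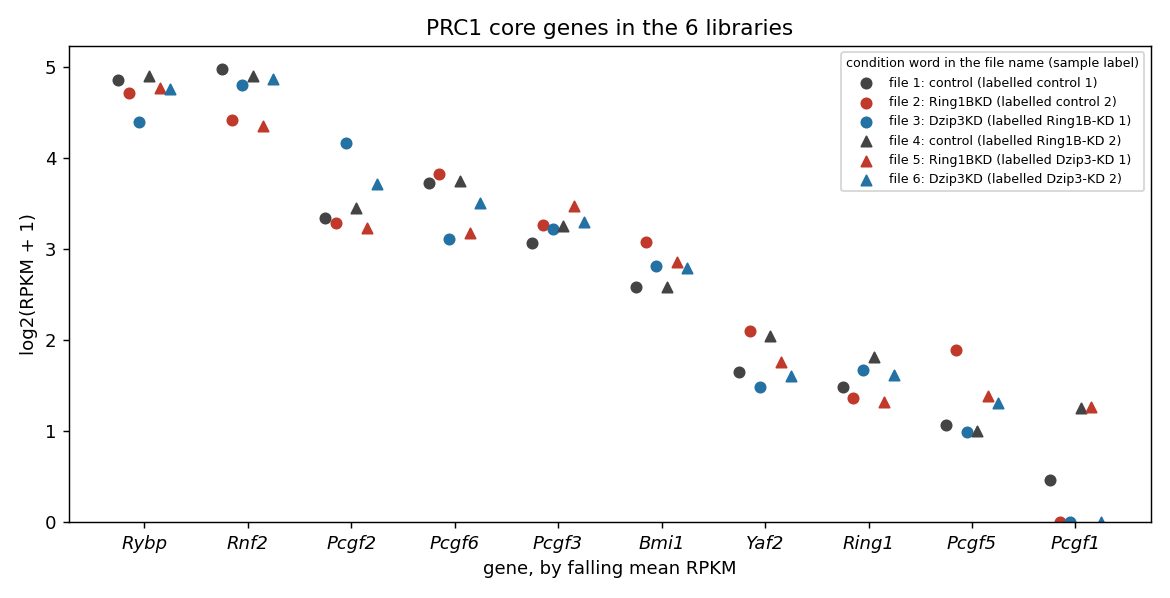
Level of each member in each library as log2(RPKM + 1), with genes ordered by falling mean. Colour gives the condition word in the file name, circles are files 1 to 3 and triangles files 4 to 6. *Rybp* and *Rnf2* lie above all other members in every library, and *Ring1* lies with *Yaf2*, *Pcgf5* and *Pcgf1* at the lower end.

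This order had 2 clear gaps. The lowest *Rnf2* value (19.4 RPKM) was above the highest *Pcgf2* value (16.9 RPKM), and the lowest *Bmi1* value (4.97 RPKM) was above the highest *Yaf2* value (3.27 RPKM). All other neighbours overlapped in range over the 6 libraries. *Rybp* was above *Rnf2* in 3 of 6 libraries, *Pcgf2* above *Pcgf6* in 3 of 6, and *Pcgf6* above *Pcgf3* in 4 of 6, so these neighbours cannot be put in order. *Pcgf3* was above *Bmi1* in 6 of 6 libraries although their ranges overlapped. *Yaf2* was above *Ring1* in 4 of 6, *Ring1* above *Pcgf5* in 4 of 6, and *Pcgf5* above *Pcgf1* in 5 of 6.

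The paralogs of the ligase and of the adaptor were expressed at very unequal levels. *Rnf2* was 11.4 to 17.0 times as high as *Ring1* in every library, and *Rybp* was 7.72 to 13.1 times as high as *Yaf2*. *Ring1* thus made up 5.54% to 8.08% of the summed RPKM of both ligases. The canonical pair was closer, *Pcgf2* being 1.17 to 2.81 times as high as *Bmi1*.

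The reads behind these levels differed widely. *Rnf2* rested on 192 to 306 reads per library and *Rybp* on 296 to 418. *Ring1* rested on only 10 to 17 reads, *Pcgf5* on 5 to 14, and *Pcgf1* on 9 reads in all. The spread of the reads over libraries, as chi-square divided by its degrees of freedom (about 1 for counting error alone), was 9.17 for *Pcgf2*, 8.37 for *Rnf2*, 5.45 for *Rybp* and 3.68 for *Pcgf6*. It was 0.530 for *Ring1*, 1.05 for *Pcgf3*, 1.17 for *Yaf2*, 1.46 for *Pcgf5*, 1.71 for *Bmi1* and 2.67 for *Pcgf1*. The differences of *Ring1* between libraries were therefore no larger than counting error.

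To determine how the ligases varied with the condition, *Rnf2*, the gene targeted in the Ring1B knockdown, was examined first. Ring1B is the main H2A ubiquitin ligase of PRC1 in mES cells. Its gene (ENSMUSG00000026484, chromosome 1, 153316536 to 153347953, minus strand, mm9) was at 30.6, 20.4 and 26.8 RPKM in files 1, 2 and 3, and at 28.8, 19.4 and 28.2 RPKM in files 4, 5 and 6. Files 2 and 5 were low, and both are named Ring1BKD but labelled control 2 and Dzip3-KD 1. By file name the groups did not overlap, with 19.9 ± 0.708 RPKM (SD, n = 2) for Ring1BKD against 29.7 ± 1.26 RPKM (SD, n = 2) for control. By label, each of control and Dzip3-KD held 1 of the low libraries, and Ring1B-KD held none.

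Within each set of files the difference by file name had nearly the same size. The ratio of file 2 to file 1 was 0.668 (95% counting interval 0.556 to 0.801, on 212 and 279 reads), and that of file 5 to file 4 was 0.674 (0.559 to 0.812, on 192 and 288 reads). These intervals compare single libraries, not conditions. Across libraries the difference in log2(RPKM + 1) was -0.55 (SE 0.13, 95% interval -0.86 to -0.25), with an unadjusted limma p of 0.00302 and a limma adjusted p of 0.232. It did not pass the adjusted threshold of 0.05. Scaling the libraries by their 75th percentile moved the median of all genes in this comparison by 0.12, from -0.08 to 0.03, and the *Rnf2* difference to -0.41. By label, the Ring1B-KD difference was 0.15 (interval -0.40 to 0.70, limma adjusted p 0.965).

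*Dzip3*, the other targeted gene, was at 2.24, 2.68 and 1.18 RPKM in files 1 to 3 and at 1.89, 1.70 and 1.31 RPKM in files 4 to 6. The lowest 2 libraries were files 3 and 6, both named Dzip3KD and labelled Ring1B-KD 1 and Dzip3-KD 2. Their ratios to the file named control in the same set were 0.527 (counting interval 0.301 to 0.905) and 0.692 (0.404 to 1.17). The difference from control by file name was -0.45 (interval -0.94 to 0.05, limma adjusted p 0.754). By label, that of Dzip3-KD was -0.47 (interval -1.02 to 0.08, limma adjusted p 0.458) and that of Ring1B-KD was -0.46 (interval -1.01 to 0.09, limma adjusted p 0.902). Both libraries of each of these groups lay below both labelled control, as for 30.3% and 18.9% of all genes. The arrangement by file name was examined with these values already known, so the levels of the targeted genes describe it and do not test it.

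Ring1 is the paralog of Ring1B and can take its place in the complex, so the data were asked whether *Ring1* was higher where *Rnf2* was lower. *Ring1* (ENSMUSG00000024325, chromosome 17, 34157737 to 34161625, minus strand, mm9) was at 1.79, 1.58 and 2.19 RPKM in files 1 to 3, on 11, 11 and 15 reads. It was at 2.53, 1.50 and 2.06 RPKM in files 4 to 6, on 17, 10 and 15 reads. The lowest 2 libraries were files 2 and 5, the same that were low in *Rnf2*. No rise of *Ring1* was seen in those libraries.

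**Figure D2:**
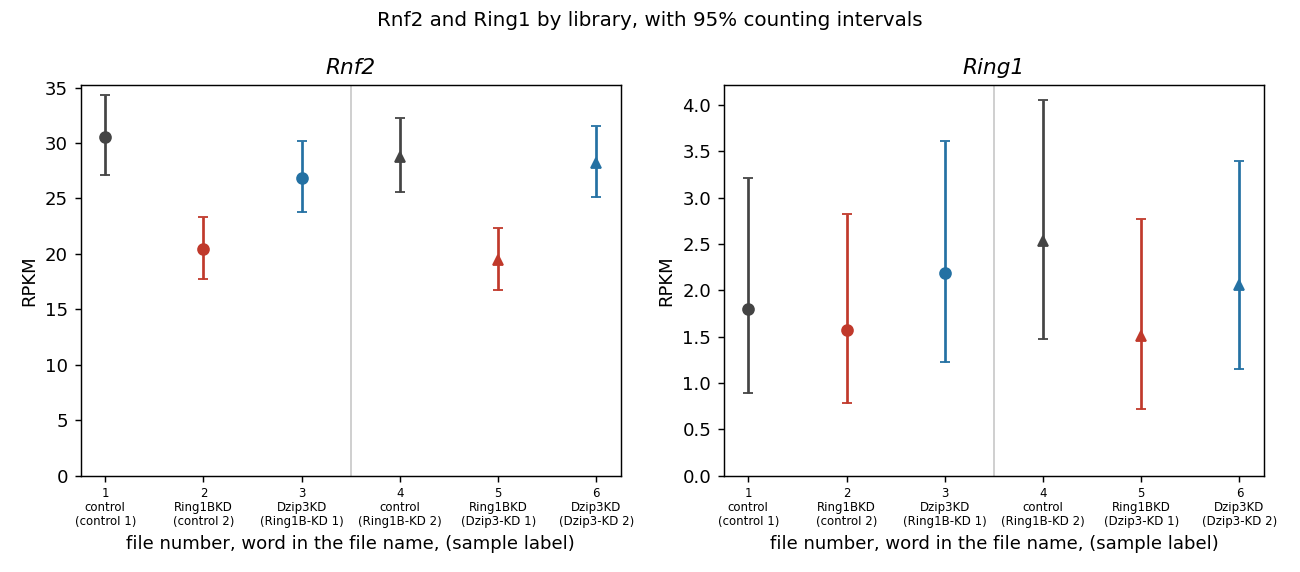
*Rnf2* (left) and *Ring1* (right) in RPKM in each library, with exact Poisson 95% intervals of the reads as error bars, which cover counting error only. A line separates files 1 to 3 from files 4 to 6. *Rnf2* is lowest in files 2 and 5 (20.4 and 19.4 RPKM), where *Ring1* is also lowest (1.58 and 1.50 RPKM), and the *Ring1* intervals of all 6 libraries overlap.

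By file name, the difference of *Ring1* in Ring1BKD was -0.31 in log2(RPKM + 1) (SE 0.21, interval -0.78 to 0.17, limma adjusted p 0.719). It was -0.12 within files 1 to 3 and -0.49 within files 4 to 6. Reads summed over both sets gave a ratio of 0.708 to control (counting interval 0.382 to 1.29, on 21 and 28 reads). Without file 4 the difference by file name was -0.11, and with scaling by the 75th percentile it was -0.21. By label the direction was opposite, and both libraries labelled Ring1B-KD were above both labelled control, with a difference of 0.32 (interval -0.19 to 0.83, limma adjusted p 0.910). *Rnf2* was not lower in those libraries. The share of *Ring1* in the summed level of both ligases was 7.17% in file 2 and 7.20% in file 5, between the 5.54% of file 1 and the 8.08% of file 4.

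By file name the RPKM of *Rnf2* changed by -33.2% from file 1 to file 2 and by -32.6% from file 4 to file 5. The interval of the *Ring1* difference in Ring1BKD reached 0.17 in log2(RPKM + 1), and the counting intervals of its ratio reached 2.24 within files 1 to 3 and 1.38 within files 4 to 6. With 10 to 17 reads per library, these counting intervals were wide and included a rise. The smallest rise of *Ring1* that such reads could have shown was not computed.

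Over the 6 libraries, 5510 genes averaging 5 RPKM or more were compared by log2(RPKM + 1), and those most like *Rnf2* were *Mmachc* (Pearson r 0.983), *Smarcad1* (0.974) and *Itpa* (0.969). For *Ring1* they were *Pnrc2* (0.972), *Sdccag3* (0.968) and *Glrx3* (0.962). Values of r of 0.9 or more were reached by 66 genes for *Rnf2* and 36 for *Ring1*. With 6 libraries in 2 sets, these values are a description only.

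The Pcgf genes were compared next. Among them *Pcgf2* made up 21.5% to 42.4% of the summed Pcgf RPKM, *Pcgf6* 19.1% to 34.6%, *Pcgf3* 20.9% to 28.2% and *Bmi1* 13.0% to 18.3%. *Pcgf5* made up 2.46% to 6.65% and *Pcgf1* at most 3.92%. The genes of canonical complexes, *Pcgf2* and *Bmi1* together, held 39.0% to 46.5% of the sum in 5 libraries and 57.5% in file 3.

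**Figure D3:**
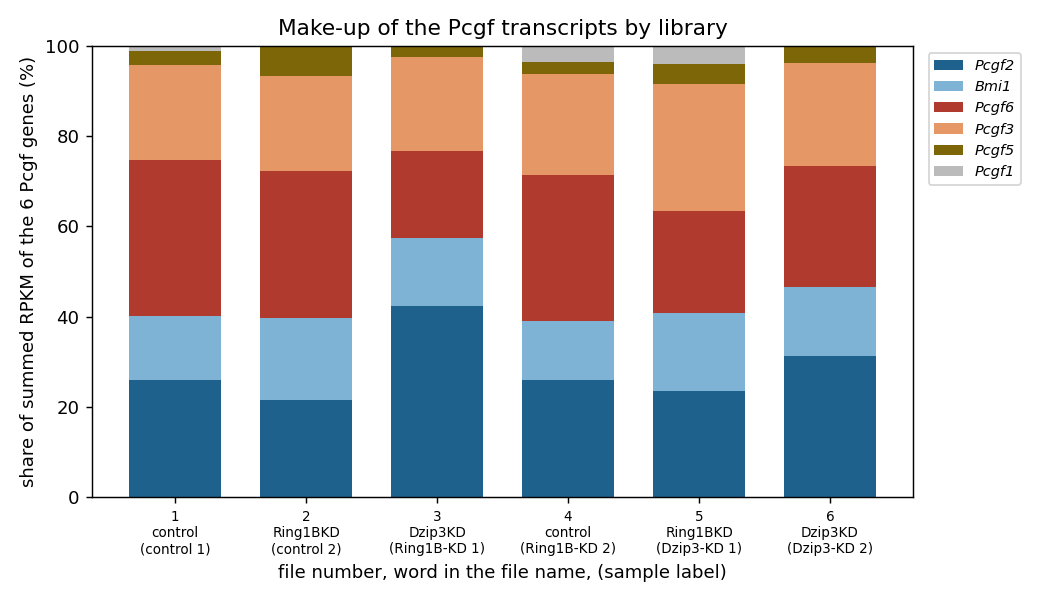
Share of each Pcgf gene in the summed RPKM of the 6 Pcgf genes, as a percentage, in each library. *Pcgf2* takes 42.4% in file 3 and 31.3% in file 6, both named Dzip3KD, and 21.5% to 26.0% in the other libraries.

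*Pcgf2*, whose product is one of the canonical subunits (ENSMUSG00000018537, chromosome 11, 97550137 to 97561811, minus strand), was at 9.12, 8.74 and 16.9 RPKM in files 1 to 3 and at 9.92, 8.42 and 12.1 RPKM in files 4 to 6. Files 3 and 6, named Dzip3KD, were high, and the remaining 4 libraries lay between 8.42 and 9.92 RPKM. The ratio to control was 1.86 within files 1 to 3 (counting interval 1.41 to 2.46, on 162 and 78 reads) and 1.22 within files 4 to 6 (0.924 to 1.61, on 123 and 93 reads). The Dzip3KD difference by file name was 0.54 (SE 0.18, interval 0.14 to 0.95, unadjusted limma p 0.0151, limma adjusted p 0.754). Without file 3 it was 0.30 and without file 6 it was 0.79. By label, *Pcgf2* was higher in both libraries labelled Ring1B-KD than in both controls, with a difference of 0.50 (interval -0.11 to 1.10, limma adjusted p 0.902). This was 0.14 without file 3 and 0.85 without file 4. Dzip3-KD differed by 0.16, or by 0.88 with the file set as a block.

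*Bmi1*, encoding the other canonical subunit (ENSMUSG00000026739, chromosome 2, 18598645 to 18608256, plus strand), was at 4.98, 7.46 and 6.02 RPKM in files 1 to 3. In files 4 to 6 it was at 4.97, 6.22 and 5.90 RPKM. Files 1 and 4, both named control, were lowest and nearly equal, and files 2 and 5, named Ring1BKD, were highest. The Ring1BKD difference by file name was 0.39 (SE 0.17, interval 0.01 to 0.77, unadjusted limma p 0.0474, limma adjusted p 0.597), with ratios of 1.50 (counting interval 1.06 to 2.14) and 1.25 (0.876 to 1.80) in the sets. That of Dzip3KD was 0.22 (interval -0.16 to 0.60, limma adjusted p 0.820). By label, differences were -0.14 for Ring1B-KD and -0.01 for Dzip3-KD, and the groups overlapped.

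*Pcgf6*, which encodes the Pcgf subunit of a variant complex with Mga and Max (chromosome 19, 47108109 to 47125380, minus strand), was at 12.2, 13.2 and 7.63 RPKM in files 1 to 3 and at 12.4, 8.02 and 10.4 RPKM in files 4 to 6. It was low in file 3 of the first set and in file 5 of the second, so the libraries named Ring1BKD moved in opposite directions (ratios of 1.08 and 0.647 to control). In Dzip3KD by file name the ratios were 0.627 (counting interval 0.434 to 0.899) and 0.836 (0.608 to 1.15), and the difference was -0.42 (interval -0.97 to 0.12, limma adjusted p 0.774). It was -0.07 without file 3 and -0.78 without file 6. By label, Dzip3-KD lay below control without overlap, with a difference of -0.43 (interval -0.98 to 0.12, limma adjusted p 0.486), which was -0.27 without file 5 and -1.07 with the file set as a block.

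*Pcgf3* and *Pcgf5* encode paralogous subunits of variant complexes. They lie on the plus strand, at 108890251 to 108935995 of chromosome 5 and 36453557 to 36530682 of chromosome 19, and *Pcgf5* overlaps a U6 gene on the minus strand. *Pcgf3* varied least of all members, from 7.38 to 10.1 RPKM with a coefficient of variation of 10.2%. Its differences from control lay between 0.07 and 0.22 in both arrangements, with limma adjusted p-values of 0.626 to 0.981. *Pcgf5* was at 1.10, 2.70 and 0.982 RPKM in files 1 to 3 and at 1.00, 1.62 and 1.48 RPKM in files 4 to 6, on 5, 14 and 5 and on 5, 8 and 8 reads. It was highest in file 2 and then file 5, both named Ring1BKD. The Ring1BKD difference by file name was 0.60 (SE 0.25, interval 0.04 to 1.17, unadjusted limma p 0.0388, limma adjusted p 0.567), and it was 0.29 without file 2 and 0.92 without file 5. The ratios to control were 2.46 within files 1 to 3 (counting interval 0.838 to 8.73) and 1.62 within files 4 to 6 (0.467 to 6.29). Both counting intervals include 1, as does that of the reads summed over both sets (0.943 to 4.91). By label, the Ring1B-KD difference was -0.49 (interval -1.15 to 0.18, limma adjusted p 0.904), and it was -0.08 without file 2 and -0.89 without file 1.

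*Pcgf1*, encoding the Pcgf subunit of the complex with Kdm2b and Bcor (chromosome 6, 83028380 to 83030841, plus strand), was barely detected. It had 1, 0 and 0 reads in files 1 to 3 and 4, 4 and 0 reads in files 4 to 6. The zeros of files 2, 3 and 6 allow levels of up to 1.00, 1.02 and 0.958 RPKM, taking 3 reads as the limit. Its Dzip3KD difference by file name, -0.86, rests on 0 against 5 reads, and those by label, 0.39 for Ring1B-KD and 0.40 for Dzip3-KD, on 4 reads each against 1. *Pcgf1* passed the minimum level only through files 4 and 5, so these differences are given as values.

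The adaptors were examined last. *Rybp*, encoding the main adaptor of variant complexes by level (chromosome 6, 100178560 to 100237435, minus strand), was at 28.0, 25.2 and 20.0 RPKM in files 1 to 3 and at 28.9, 26.2 and 26.0 RPKM in files 4 to 6. Both files named control were highest. The differences from control by file name were -0.14 for Ring1BKD (interval -0.47 to 0.19, limma adjusted p 0.820) and -0.31 for Dzip3KD (interval -0.64 to 0.02, unadjusted limma p 0.0656, limma adjusted p 0.754). Scaling by the 75th percentile moved them to -0.0014 and -0.24. Most of the Dzip3KD difference came from file 3, whose ratio to file 1 was 0.715 (counting interval 0.612 to 0.835), against 0.900 (0.783 to 1.03) for file 6 to file 4. Without file 3 the Dzip3KD difference was -0.15. *Yaf2* (chromosome 15, 93114709 to 93167366, minus strand) lay between 1.79 and 3.27 RPKM on 14 to 26 reads, was lowest in files 3 and 6, and differed from control by -0.31 in Dzip3KD by file name (interval -0.83 to 0.22, limma adjusted p 0.816). That difference was -0.06 without file 4 and -0.56 without file 1. By label, the Ring1B-KD and Dzip3-KD differences were -0.14 and -0.03 for *Rybp* and -0.11 and -0.19 for *Yaf2*, with overlapping groups, and that of *Rybp* in Dzip3-KD was -0.53 with the file set as a block.

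**Figure D4:**
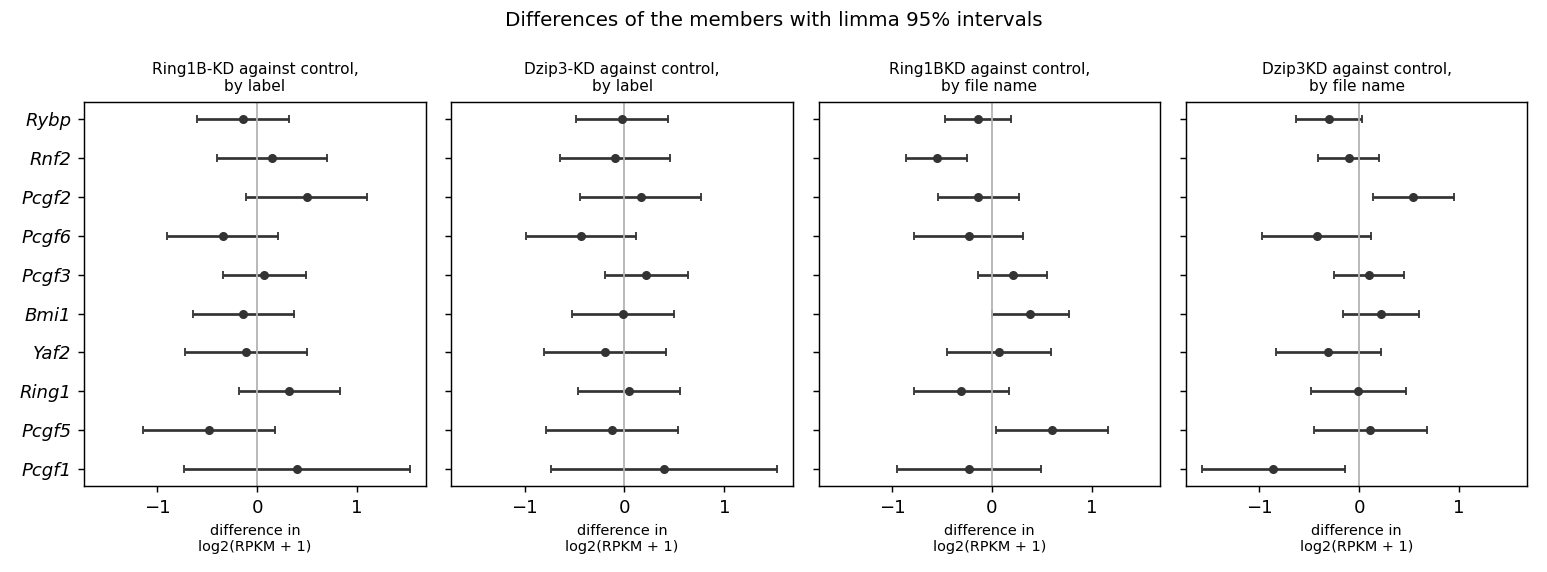
Difference from control in log2(RPKM + 1) for each member, with limma 95% intervals, by label (left pair of panels) and by file name (right pair). By label every interval includes 0, and by file name those of *Rnf2* (-0.55), *Bmi1* (0.39) and *Pcgf5* (0.60) in Ring1BKD and of *Pcgf2* (0.54) and *Pcgf1* (-0.86) in Dzip3KD do not. Summed over both sets, that of *Pcgf1* rests on 0 against 5 reads and that of *Pcgf5* on 22 against 10.

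Over the 10 members, 0 passed a limma adjusted p under 0.05 in any comparison. Of all 11538 genes tested, the shares passing were 0% for Ring1B-KD and Dzip3-KD by label, 0.416% for Ring1BKD by file name and 0% for Dzip3KD by file name. The 0.416% are 48 genes, all of them higher, and the count was 3 without file 5. limma-voom on the recovered reads passed 0 of 10 members as well. At an unadjusted limma p under 0.05, by label 0 of 10 members passed for Ring1B-KD (5.10% of all genes, 2.23% higher and 2.88% lower). For Dzip3-KD it was 0 of 10 (12.2% of all genes, 5.24% higher and 6.99% lower). By file name 3 of 10 passed for Ring1BKD (8.31% of all genes), 2 of them higher (3.11%) and 1, *Rnf2*, lower (5.20%). *Rnf2* is the targeted gene, so its level describes this arrangement and does not test it. For Dzip3KD 2 of 10 passed (6.52%), 1 of them higher (3.18%) and 1, *Pcgf1*, lower (3.34%). *Pcgf1* rests on 0 against 5 reads there and passed the minimum level only through files 4 and 5, so its place in this count is not read.

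The direction was also read from libraries that did not overlap. By file name, *Bmi1*, *Pcgf3* and *Pcgf5* were higher in both libraries named Ring1BKD than in both named control (3 of 10, against 9.11% of all genes). *Rnf2*, *Ring1*, *Pcgf2* and *Rybp* were lower (4 of 10, against 21.6%). After 75th percentile scaling the differences of these 4 were -0.41, -0.21, -0.0052 and -0.0014, and those of *Bmi1*, *Pcgf3* and *Pcgf5* were 0.51, 0.34 and 0.69. *Rnf2* is the targeted gene, and its place in the count only describes this arrangement. In Dzip3KD, *Bmi1* and *Pcgf2* were higher (2 of 10, against 11.2%) and *Rnf2*, *Pcgf1*, *Pcgf6*, *Rybp* and *Yaf2* lower (5 of 10, against 15.2%). The lower count includes *Pcgf1*, which rests on 0 against 5 reads and is not read. Counted within each set instead, the members on the same side of control in both sets were the same for Ring1BKD, against 18.5% of all genes for higher and 40.6% for lower. For Dzip3KD *Pcgf3* joined those higher (3 of 10, against 22.3%), and the 5 lower, *Pcgf1* again among them, stood against 29.5%. Both comparisons share files 1 and 4 as controls. By label, *Ring1* and *Pcgf2* were higher and *Pcgf5* lower in Ring1B-KD (2 and 1 of 10, against 14.9% and 18.9%), and *Pcgf3* was higher and *Pcgf6* lower in Dzip3-KD (1 and 1 of 10, against 20.4% and 30.3%). The median difference of the members was -0.14 in Ring1BKD and -0.06 in Dzip3KD by file name, beside -0.08 and -0.03 over all genes, and -0.02 in both groups by label, beside -0.02 and -0.07.

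The sets of files were also compared. Files 4 to 6 differed from files 1 to 3 for 7.62% of all genes at a limma adjusted p under 0.05, and for 0 of the 10 members. These were 455 genes higher and 424 lower, or 582 and 325 after scaling by the 75th percentile, and leaving out any 1 library reduced the total of 879 to 351 to 509. At an unadjusted limma p under 0.05 it was 26.5% of all genes (12.0% higher and 14.4% lower). Of the 10 members, 1 passed there, *Pcgf1*, which was higher. All 3 libraries of the second set were above all 3 of the first for 13.1% of genes and below for 15.5%, and each count was 0 of 10 for the members. With 10 members, counts of 0 do not set them apart from other genes. The differences of 9 members lay between -0.13 and 0.16. *Pcgf1* had 8 of its 9 reads in files 4 and 5, through which alone it passed the minimum level, so its difference between the sets is not read.

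The other genes of the Polycomb machinery were taken as lists, 28 genes of further PRC1 subunits and partners and 11 of PRC2, the complex that methylates histone H3. All were listed and tested. By file name, the median difference of the further PRC1 genes was 0.01 in both comparisons, and that of PRC2 was -0.0081 in Ring1BKD and 0.028 in Dzip3KD, beside -0.08 and -0.03 over all genes. By label, that of the further PRC1 genes was -0.10 in Ring1B-KD and -0.09 in Dzip3-KD. That of PRC2 was -0.11 and -0.09, and the medians over all genes were -0.02 and -0.07. Both comparisons by label share the controls. For the further PRC1 genes, 0 of 28 passed the adjusted threshold in each of the 4 comparisons (0% to 0.416% of all genes). At an unadjusted limma p under 0.05 there were 1 higher and 1 lower in Ring1BKD (3.11% and 5.20% of all genes). There were none in Dzip3KD by file name (3.18% and 3.34% of all genes). Those in Ring1BKD were *Scml2* (0.47, limma adjusted p 0.581) and *Cbx7*, the main Cbx protein of mES cells (-0.34, limma adjusted p 0.575). By label, *Cbx8* was lower in Ring1B-KD (-0.50, unadjusted limma p 0.0405, limma adjusted p 0.902), and *Phc2* had a difference of -0.69 in Dzip3-KD (unadjusted limma p 0.0432, limma adjusted p 0.401). Of all genes, 2.88% were lower in Ring1B-KD and 6.99% in Dzip3-KD at an unadjusted limma p under 0.05. For PRC2, 0 of 11 passed the adjusted threshold in these 4 comparisons. Only *Eed*, a core subunit, had an unadjusted limma p under 0.05 in them (-0.40 in Dzip3-KD by label, limma adjusted p 0.393, against 6.99% of all genes lower). *Phc2* also differed between the sets of files (-0.73 in files 4 to 6, limma adjusted p 0.0321), as did *Rbbp7* of PRC2 (-0.74, limma adjusted p 0.0142).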

How the data were processed

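The members, lists and comparisons were chosen with earlier results of these data known. The authors deposited 1 list of RPKM values per library. According to the study, TruSeq Stranded mRNA libraries were read by a MiSeq, aligned to mouse mm9 with the Illumina Analysis Pipeline allowing 1 mismatch, and reads mapped uniquely to a gene were divided by exon length and mapped reads. The version, the annotation and whether counting used strand are not given in the sources used here. RPKM does not correct for a changed RNA composition.

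Whole reads were recovered from the RPKM steps for 15165 genes (91.0%), including all members, where every value was a whole multiple of a step (tolerance 0.003 reads, or 1e-05 of the reads where larger) and the step gave a whole exon length. Values under 0.001 RPKM counted as 0 there. Absolute depth came from matching steps to GENCODE M1 transcript lengths (NCBIM37, which is mm9), the source of the coordinates and sequences.

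limma 3.58.1 in R 4.3.3 was run with the variance trend on log2(RPKM + 1), for the 11538 genes averaging 0.5 RPKM or more. Fold changes of low genes are understated on this scale. All 6 libraries shared 1 estimate of the spread. The fit by label had no block, and that by file name had the file set as a block. Adjustment was by Benjamini-Hochberg over all genes, with a threshold of 0.05. Named genes were all 10 members, *Dzip3*, the genes of smallest p in each list, and the 3 most like *Rnf2* and *Ring1*. A further result of these lists is not reported here. Intervals of read ratios were exact conditional binomial. The code was tested on simulated reads. Alternatives were a pseudocount of 0.1, no filter, 75th percentile scaling, limma-voom on recovered reads, an unmoderated one-way model, blocks, and leaving out each library.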

Additional observations from a re-analysis of the deposited data

How the results depend on the processing

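No member passed an adjusted p under 0.05 under any alternative run. By file name, the *Rnf2* difference in Ring1BKD kept its direction in 11 of 11 alternatives, from -0.59 to -0.41, with limma adjusted p-values of 0.0596 (limma-voom on recovered reads) to 1. That of *Ring1* stayed below 0 in 11 of 11 (-0.50 to -0.11), and *Pcgf2* in Dzip3KD stayed above 0 in 11 of 11 (0.30 to 0.79). By label, *Ring1* in Ring1B-KD stayed above 0 in 13 of 13 (0.25 to 0.47). Over all alternatives the direction of a member turned in 8 of 130 values for Ring1B-KD and 17 of 130 for Dzip3-KD by label, in 5 of 110 for Ring1BKD and 4 of 110 for Dzip3KD by file name, and in 13 of 100 between the sets of files. By construction, dropping the filter or the moderation cannot move a difference. Nor can the replicate block by label, or dropping the file set block by file name. Leaving out a library of neither compared group does not move it either. The tallies above therefore include values that could not turn. The cause of the turns was not tested. Depth limits *Ring1*, *Pcgf5* and *Pcgf1*, with at most 17, 14 and 4 reads in a library. With 1 library of a group left out, the lone library is assumed to vary like the others.

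The number of genes past an adjusted p of 0.05 in Ring1B-KD by label was 0 under all alternatives, with the replicate block too. For Dzip3-KD by label (0 genes) it was 3 by limma-voom, 1 with the replicate block and 0 to 27 on leaving out a library (25 without Ring1B-KD 1 and 27 without Ring1B-KD 2). Within the groups by label, same-numbered libraries did not deviate together (r -0.04, -0.24 and 0.04). These deviations mix the replicate number with the word in the file name and, for Ring1B-KD, with the file set. They therefore cannot decide whether the numbers pair the samples. For Ring1BKD by file name (48 genes) it was 21 with a pseudocount of 0.1, 0 without the filter (1278 at an unadjusted limma p under 0.05), 81 by limma-voom, 0 without the file set block (421 unadjusted) and 3 to 61 on leaving out a library. For Dzip3KD by file name (0 genes) it was 4 by limma-voom and 0 to 4 on leaving out a library. Between the sets of files (879 genes) it was 0 without the filter (3193 unadjusted), 1690 by limma-voom and 351 to 509 on leaving out a library.

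After scaling by the 75th percentile, the Dzip3-KD differences by label of *Rnf2*, *Bmi1* and *Rybp* turned to 0.0082, 0.075 and 0.074, that of *Ring1* in Dzip3KD by file name to 0.037, and that of *Rnf2* between the sets to 0.029. With the file set as a block, chosen after seeing the data, the differences by label turned for *Pcgf1* in Ring1B-KD (-0.23) and for *Ring1* (-0.10), *Bmi1* (0.22) and *Pcgf1* (-0.85) in Dzip3-KD. On leaving out a library, the Ring1B-KD differences by label that turned ranged from -0.13 to 0.43 for *Rnf2*, -0.39 to 0.11 for *Bmi1*, -0.23 to 1.02 for *Pcgf1*, -0.025 to 0.17 for *Pcgf3*, -0.39 to 0.12 for *Rybp* and -0.39 to 0.17 for *Yaf2*. Those of Dzip3-KD ranged from -0.37 to 0.19 for *Rnf2*, -0.10 to 0.19 for *Ring1*, -0.26 to 0.24 for *Bmi1*, -0.23 to 1.03 for *Pcgf1*, -0.076 to 0.40 for *Pcgf2*, -0.54 to 0.28 for *Pcgf5*, -0.10 to 0.047 for *Rybp* and -0.41 to 0.028 for *Yaf2*. By file name, the Ring1BKD differences ranged from -0.66 to 0.21 for *Pcgf1*, -0.31 to 0.045 for *Pcgf2*, -0.66 to 0.20 for *Pcgf6*, -0.22 to 0.37 for *Yaf2* and -0.16 to 0.24 for *Dzip3*, and those of Dzip3KD from -0.20 to 0.18 for *Ring1* and -0.19 to 0.42 for *Pcgf5*. Between the sets they ranged from -0.076 to 0.00038 for *Rnf2*, -0.050 to 0.15 for *Ring1*, -0.25 to 0.031 for *Pcgf2*, -0.28 to 0.13 for *Pcgf5*, -0.31 to 0.21 for *Pcgf6* and -0.11 to 0.26 for *Yaf2*.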
